A study of Homo sapiens with 2 samples.

Results

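The genes described here are a selection from a stretch of human chromosome 3, from SHQ1 in band 3p13 to UROC1 in band 3q21, and were picked because many of them read higher in SW480 cells with TFAP2E than in SW480 cells with the empty vector. The list holds 55 genes, out of 18417 that the array names by a single symbol, and each of the 55 was found through its symbol in the platform's table of probe sets. A gene is called measured when the higher of its 2 values reaches 5.55 on the log2 scale, which is the median value of the deposited table, and dim otherwise. By that filter 44 of the 55 were measured and 11 were dim, against 11548 measured genes on the whole array. The members were selected on the measured difference between the arrays, so that this difference is given as a description and no test can be made on it.

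The samples were stable transfectants of SW480, an established line from a human colorectal adenocarcinoma. The TFAP2E overexpression sample carried the coding sequence of TFAP2E in the pTarget mammalian expression vector, and the empty vector sample carried that vector without the insert. Both were kept under Geneticin, and the labels describe picked single clones whose TFAP2E expression was checked. The labels give 1 array per group and do not say whether it holds RNA of 1 clone or of several, so that TFAP2E and any difference between clones cannot be told apart. Every difference below is the log2 RMA value on the TFAP2E overexpression array minus that on the empty vector array, with no replicate and therefore no error, test or p-value.

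TFAP2E encodes AP-2 epsilon, a DNA-binding transcription factor of the AP-2 family, whose members bind GC-rich palindromes in promoters and enhancers. The genes from SHQ1 to UROC1 share no pathway. They encode parts of the transcription, membrane traffic, autophagy, ubiquitin and mitochondrial machinery that most cells use, beside a few surface and secreted proteins, and what they have in common is their neighbourhood on either side of the centromere of chromosome 3. Such neighbours are copied, lost and rearranged as a unit when a chromosome segment changes, and SW480 is known as a line with a rearranged karyotype. DNA copy number was not measured here. A level on the array is RNA over the whole culture, so that fewer cells with a transcript and less RNA per cell cannot be told apart.

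TFAP2E itself read 6.81 on the array labelled TFAP2E overexpression and 6.77 with the empty vector, differing by 0.04, so that the directions below rest on the labels alone. The arrays were otherwise close, with a Pearson correlation of 0.986 across the 11548 measured genes, whose median difference was 0.04 with 95% of them between -0.37 and 0.47. Of 12 markers of colorectal epithelium 9 were measured, among them EPCAM at 11.1 and 11.2 with TFAP2E and the empty vector, while KRT20, CEACAM5 and LGR5 were dim. Of the 9, 7 were lower and 2 higher with TFAP2E, where 59.2% of all measured genes lay above 0. The markers ran from CDH1, which encodes E-cadherin, at 6.38 against 7.08 (-0.71) to the microvillus protein VIL1 at 6.22 against 4.94 (1.28). VIL1 passed the filter only through the TFAP2E overexpression array. The part of these markers in the results below was not tested. The 5 endothelial markers were dim, and 2 of 7 fibroblast and 2 of 5 leukocyte markers were measured, none above 6.60 on either array.

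Of the 44 measured genes of the list, 41 had a difference above 0 and 3 below, where 59.2% of all measured genes lay above 0. At a fixed rule of size of 1.2-fold, 17 of the 44 were higher with TFAP2E, or 38.6%, and 0 were lower, against a background of 12.8% of all measured genes higher and 6.05% lower. Their median difference was 0.20, beside 0.04 for all measured genes. The shift was shallow. Only GTF2E1 reached 1.5-fold (0.892% of all measured genes did so upwards), and no member reached 2-fold, as 0.0866% of all measured genes did upwards. The upper end of the central 95% of all genes was passed by 5 members, and the lower end by 0. At the lower side, 7 of the 44 lay at or below the median of all genes.

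**Figure D1:**
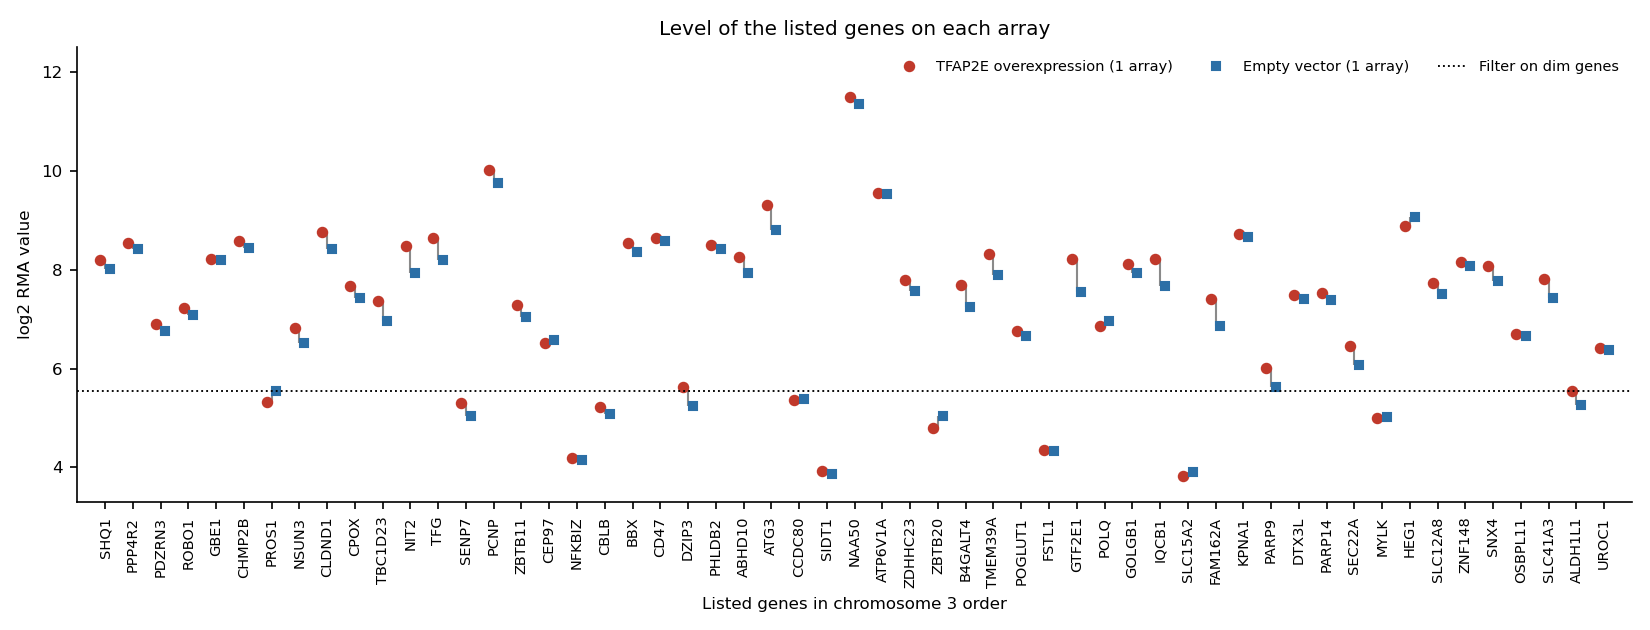
Log2 RMA value of each of the 55 listed genes, in chromosome 3 order, on the TFAP2E overexpression array (circles, left) and on the empty vector array (squares, right), with the filter on dim genes at 5.55 as a dotted line. The listed genes span from 3.83 for SLC15A2 to 11.5 for NAA50, and most circles stand slightly above their squares.

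The highest member was GTF2E1, the large subunit of TFIIE, which recruits TFIIH to RNA polymerase II at the promoter. It read 8.22 with TFAP2E and 7.54 with the empty vector, 0.68 apart or 1.60-fold higher. NIT2, an omega-amidase that acts on products of glutamine transamination, followed at 8.49 against 7.93, or 1.47-fold. FAM162A, a mitochondrial protein induced by hypoxia, read 7.40 against 6.85 and was 1.46-fold higher. IQCB1, a protein of the base of the cilium, read 8.21 against 7.67 and was 1.45-fold higher, and ATG3, the enzyme that joins ATG8 proteins to lipid in autophagy, read 9.30 against 8.80, or 1.42-fold. These 5 are the members above the central 95% of all genes. They belong to different processes, and only IQCB1 and FAM162A lie close to GTF2E1 along the chromosome.

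At the other end, HEG1 was the lowest measured member. This mucin-like transmembrane receptor is known from the endothelium and read 8.89 with TFAP2E against 9.07 with the empty vector, a difference of -0.18. POLQ, the polymerase of microhomology-mediated end joining, read 6.86 against 6.97 (-0.11), and CEP97, which keeps the mother centriole from growing a cilium, read 6.51 against 6.57 (-0.06). CEP97 lay between measured neighbours that were higher, RPL24 (0.50) and NXPE3 (0.33), and HEG1 next to ITGB5 at -0.05 and SLC12A8 at 0.23. POLQ stands directly after GTF2E1 in the list, so the highest member and the second lowest are listed neighbours. GBE1, the glycogen branching enzyme, at 0.02 and ATP6V1A, the catalytic subunit of the lysosomal proton pump, at 0.03 were level on both arrays, and their sign turned with quantile normalization and with removal of the trend of the difference on the level.

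The promoters of the 3 highest measured members with an entry in the promoter table and of the lowest are shown, because AP-2 factors act through promoter sequence and these genes mark both ends of the range. The sequences are from RefSeq, build GRCh38.p14, and run from 250 bases before to 50 bases after the annotated start, given 5′ to 3′ on the strand of the gene. Capitals mark matches to the AP-2 consensus GCCNNNGGC or to its longer spacing GCCNNNNGGC, searched on both strands. Both patterns are palindromes, so a match on a strand is the same match on the other.
GTF2E1 promoter, chr3:120742494-120742793, plus strand: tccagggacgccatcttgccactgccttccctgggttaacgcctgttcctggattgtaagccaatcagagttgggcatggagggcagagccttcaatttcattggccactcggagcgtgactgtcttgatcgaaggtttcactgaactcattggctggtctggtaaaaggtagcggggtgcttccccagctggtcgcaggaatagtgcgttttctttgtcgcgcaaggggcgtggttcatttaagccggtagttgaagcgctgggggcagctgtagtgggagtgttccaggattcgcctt
NIT2 promoter, chr3:100334507-100334806, plus strand: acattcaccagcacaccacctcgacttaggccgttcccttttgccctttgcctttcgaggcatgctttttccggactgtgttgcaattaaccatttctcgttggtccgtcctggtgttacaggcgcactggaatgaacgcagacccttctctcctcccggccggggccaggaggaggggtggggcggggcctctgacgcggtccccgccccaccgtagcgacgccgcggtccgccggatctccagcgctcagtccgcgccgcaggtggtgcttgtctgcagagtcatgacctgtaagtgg
FAM162A promoter, chr3:122383932-122384231, plus strand: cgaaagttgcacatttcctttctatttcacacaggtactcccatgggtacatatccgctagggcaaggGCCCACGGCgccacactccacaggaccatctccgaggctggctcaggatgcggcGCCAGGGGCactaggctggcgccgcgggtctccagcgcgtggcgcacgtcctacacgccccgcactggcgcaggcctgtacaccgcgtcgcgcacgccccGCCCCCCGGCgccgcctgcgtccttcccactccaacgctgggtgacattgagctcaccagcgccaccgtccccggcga
HEG1 promoter, chr3:125055948-125056247, minus strand: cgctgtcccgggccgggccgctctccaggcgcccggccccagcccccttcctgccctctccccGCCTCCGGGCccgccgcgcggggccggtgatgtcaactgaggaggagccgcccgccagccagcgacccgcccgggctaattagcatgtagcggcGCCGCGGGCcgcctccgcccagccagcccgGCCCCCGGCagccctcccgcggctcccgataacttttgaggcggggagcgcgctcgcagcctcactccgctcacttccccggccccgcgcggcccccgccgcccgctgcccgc

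GTF2E1 and NIT2, the highest members, hold no match to either pattern in these 300 bases, FAM162A holds 2 of the shorter and 1 of the longer, and HEG1, the lowest measured member, also holds 2 and 1. A promoter was found for 51 of the 55 genes, using the first start listed for each. Those of SENP7, ABHD10, ATP6V1A and CLDND1 were not used here. The shorter pattern occurred in 12 of the 51 and in 6291 of the 27305 promoters of all genes in the table, and the longer in 13, or 25.5%, against 21.2%. Either was present in 37.3% of the listed genes' promoters and in 36.4% of all. The 18 measured genes with a match had a median difference of 0.20 (from -0.18 to 0.55) and the 23 without had 0.19 (from -0.11 to 0.68), ranges that overlap over most of their length. A match describes letters in this window and not a bound site.

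The difference was not even along the chromosome. In blocks of 11 consecutive genes, ordered by the RefSeq gene table, the medians of the measured members were 0.16 for SHQ1 to TBC1D23, 0.24 for NIT2 to DZIP3, 0.26 for PHLDB2 to TMEM39A, 0.19 for POGLUT1 to DTX3L and 0.13 for PARP14 to UROC1. The 6 members on the short arm, SHQ1 to CHMP2B, were close to each other, between 0.02 and 0.19. Of these 6, 0 reached 1.2-fold, where 12.8% of all measured genes did, and 6 genes are too few to set against that share. All 12 measured genes of the short arm part, listed or not, ran from -0.22 to 0.47, and 2 reached 1.2-fold. The 38 measured members on the long arm ranged from -0.18 to 0.68 with a median of 0.24, and 17 of the 38 reached 1.2-fold. The median of the 6 short arm members, 0.14, was nonetheless above the 0.04 of all genes. The arms were set apart after the values were seen.

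**Figure D2:**
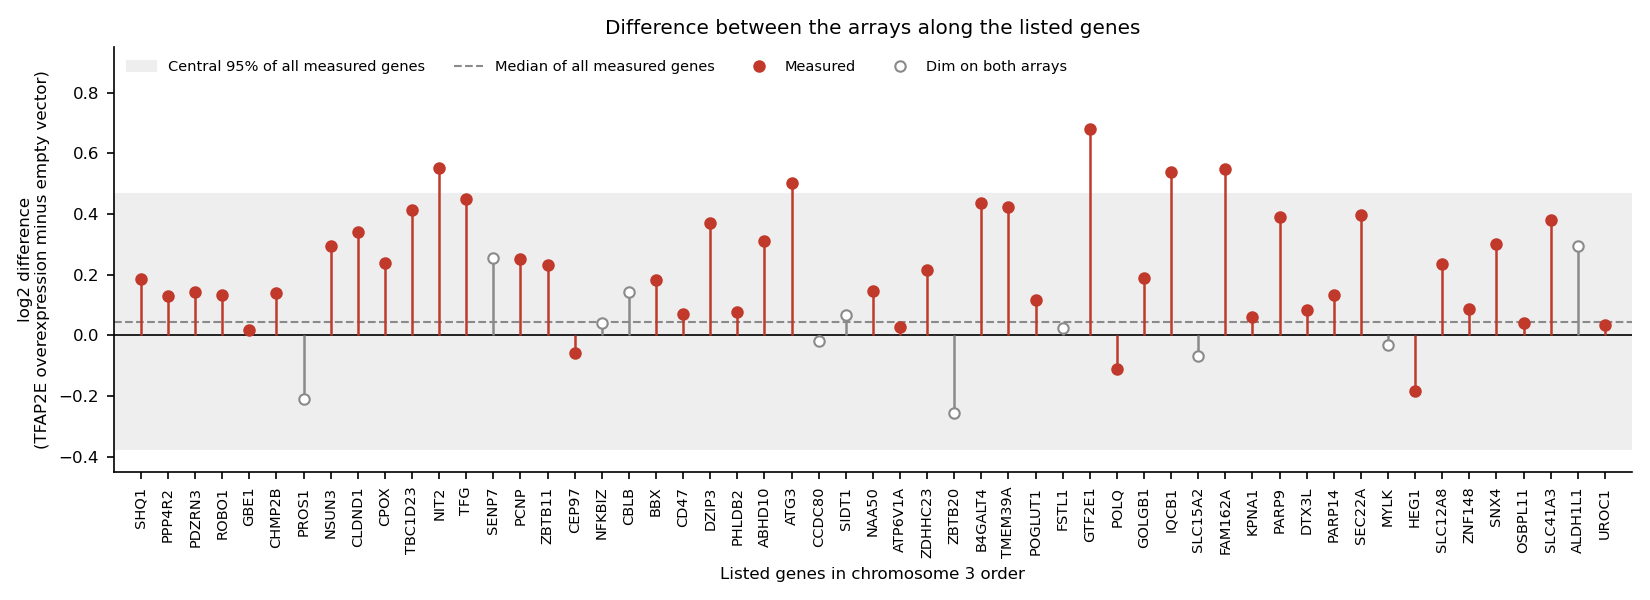
Log2 difference (TFAP2E overexpression minus empty vector) of the 55 listed genes in chromosome 3 order, with filled points for measured and open points for dim genes, the central 95% of all measured genes in grey (-0.37 to 0.47) and their median as a dashed line. The first 6 genes sit between 0.02 and 0.19, the tallest points (GTF2E1 at 0.68, NIT2 and FAM162A at 0.55) lie in the middle, and CEP97, POLQ and HEG1 are the filled points below 0.

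Genes of membrane traffic, autophagy and the lysosome, with KPNA1 of nuclear import counted among them, formed the largest group. All 12 were measured, all 12 were above 0, where 59.2% of all measured genes were, and 6 reached 1.2-fold, where 12.8% did, with a median of 0.26. The same shares apply to the groups that follow, which are small and were chosen on this difference. Besides ATG3, these 6 were TFG, which organises exit sites of the endoplasmic reticulum (8.63 against 8.18), TMEM39A, a membrane protein of that compartment linked to autophagy (8.32 against 7.90), and TBC1D23, which tethers endosomal vesicles to the Golgi (7.37 against 6.95). The SNARE-like protein SEC22A (6.46 against 6.06) and the endosomal sorting nexin SNX4 (8.07 against 7.77) completed them. The other 6 were ZDHHC23, a palmitoyltransferase (0.22), the Golgi tether GOLGB1 or giantin (0.19), the ESCRT-III subunit CHMP2B (0.14), the nuclear import receptor KPNA1 (0.06), the oxysterol-binding family member OSBPL11 (0.04) and ATP6V1A (0.03).

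Of the 10 genes of transcription, RNA and nuclear regulation, 8 were measured and all 8 were above 0, with 2 past 1.2-fold and a median of 0.21. GTF2E1 led, and NSUN3, which methylates a mitochondrial transfer RNA, read 6.81 against 6.52. PCNP, a small nuclear protein, differed by 0.25 in the probe set used and by 0.45 in its second probe set, 9.69 against 9.24, so that the same gene falls on either side of 1.2-fold. The zinc finger factors ZBTB11 (0.23) and ZNF148 (0.09), the HMG-box factor BBX (0.18), the snoRNP assembly factor SHQ1 (0.19) and the N-terminal acetyltransferase NAA50 (0.15) stayed below it. NAA50 was the brightest member, at 11.5 with TFAP2E and 11.3 with the empty vector.

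In metabolism and mitochondria, 6 of 7 were measured, all above 0, and NIT2, FAM162A and the mitochondrial depalmitoylase ABHD10 (8.25 against 7.94) passed 1.2-fold. CPOX, which makes protoporphyrinogen in the heme pathway, differed by 0.24, and UROC1, the urocanase of histidine breakdown, by 0.03. Of the 7 genes that attach or remove ubiquitin, SUMO or ADP-ribose, 5 were measured. PARP9, a partner of the ubiquitin ligase DTX3L in ADP-ribosylation, read 6.02 against 5.62 (0.39), while DTX3L, its neighbour, read 7.49 against 7.40 (0.08). PARP14, an ADP-ribosyltransferase and the next listed gene after DTX3L, differed by 0.13. The RNA-binding ubiquitin ligase DZIP3 differed by 0.37, just past the filter at 5.62 with TFAP2E, and the ligase PDZRN3 by 0.14.

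Both glycosyltransferases were above 0, at 0.44 for B4GALT4, which adds galactose to sugar chains such as keratan sulfate (7.68 against 7.25), and 0.12 for POGLUT1, which glucosylates Notch. Of the 4 transporters, SLC41A3, of a family of magnesium transporters, differed by 0.38, SLC12A8 by 0.23, and 2 were dim. Of the 4 genes of genome repair, centrosome and cilium only IQCB1 passed 1.2-fold, with PPP4R2, a regulator of protein phosphatase 4, at 0.13, and POLQ and CEP97 below 0. Of the surface, secreted and cytoskeletal genes, 5 of 9 were measured, and their median was 0.08, from CLDND1, a claudin-like membrane protein, at 0.34 (8.77 against 8.42), through the guidance receptor ROBO1 (0.13), the microtubule anchor PHLDB2 (0.08) and the anti-phagocytic signal CD47 (0.07), to HEG1.

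The 11 dim members were nearly level as a group. Their median difference was 0.02, with 6 above 0 and 5 below, where 46.2% of all 6869 dim genes lay above 0. The 89 dim genes of the whole interval had a median of 0, equal to the 0 of all dim genes. The highest dim member was ALDH1L1, a folate enzyme, at 5.55 against 5.25 (0.29), which misses the filter by less than the second decimal shows. Next were SENP7, a SUMO chain protease (0.26), and the ubiquitin ligase CBLB (0.14). SIDT1, NFKBIZ and FSTL1 lay between 0.02 and 0.07, and CCDC80 (-0.02), MYLK (-0.03) and SLC15A2 (-0.07) were slightly below 0. The transcriptional repressor ZBTB20 differed by -0.26 and the anticoagulant cofactor PROS1 by -0.21, with its second probe set at -0.31. The members just inside and just outside the filter were DZIP3, at 5.62, and ALDH1L1. The filter takes the higher array, so that the difference itself helps to decide who passes. DZIP3 passed only through the TFAP2E overexpression array, as did ALCAM, HSPBAP1 and KLF15 among the other genes of the interval, and KALRN passed only through the empty vector array. With the mean of both arrays as the filter, 16 of 43 members were higher at 1.2-fold, against 12.6% of all measured genes. Within the measured genes the level made little difference, since the 22 dimmer had a median of 0.23 and the 22 brighter 0.18, while all genes of the same levels had 0.03 and 0.06.

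The list is a selection of the interval. The RefSeq gene table places 184 named genes of the array from SHQ1 to UROC1, of which 95 were measured, 44 of them members and 51 not. The 51 others had a median difference of 0.30 and 26 of them were higher at 1.2-fold, against 17 of the 44 members and 12.8% of all genes. Leaving genes out of the list thus did not raise its median. The interval is itself bounded by listed genes, which were picked on this difference, so its other genes are no independent check of the shift. Over all 95, 82 were above 0, 43 were higher at 1.2-fold and 1 was lower, with a median of 0.24 and a standard deviation of 0.246 between genes, against 0.219 over all genes. The interval thus stood higher without being tighter than the rest.

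The 5 highest of the other genes all exceeded every member but GTF2E1 (0.68), and CMSS1, ARHGAP31 and RIOX2 exceeded GTF2E1 too. CMSS1, a nucleolar protein, read 8.08 against 7.15 (0.92), and ARHGAP31, which switches off Rac1 and Cdc42, read 6.94 against 6.11 (0.83). RIOX2, a ribosomal histidine hydroxylase, differed by 0.70, the mitochondrial import receptor TOMM70 by 0.65 and the centriole protein SPICE1 by 0.64. The clearest exception in the other direction was ZBED2, a zinc finger gene, at 6.25 against 6.97 (-0.72). By the probe sets used it was the only measured gene of the interval lower at 1.2-fold. ZNF654 (-0.22), KALRN (-0.11), CGGBP1 (-0.06) and ITGB5 (-0.05) were the next lowest of the genes outside the list. ZXDC, named after its values were seen, differed by 0.04 in the probe set used and by -0.50 in its second, 5.24 against 5.74. MUC13, a transmembrane mucin of the intestinal surface, was named after its value was seen. It lies in the interval and read 5.49 with TFAP2E against 3.85 with the empty vector, a difference of 1.64, just under the filter on its brighter array, and CFAP44, a dim cilium gene, read 4.39 against 5.18 (-0.78).

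**Figure D3:**
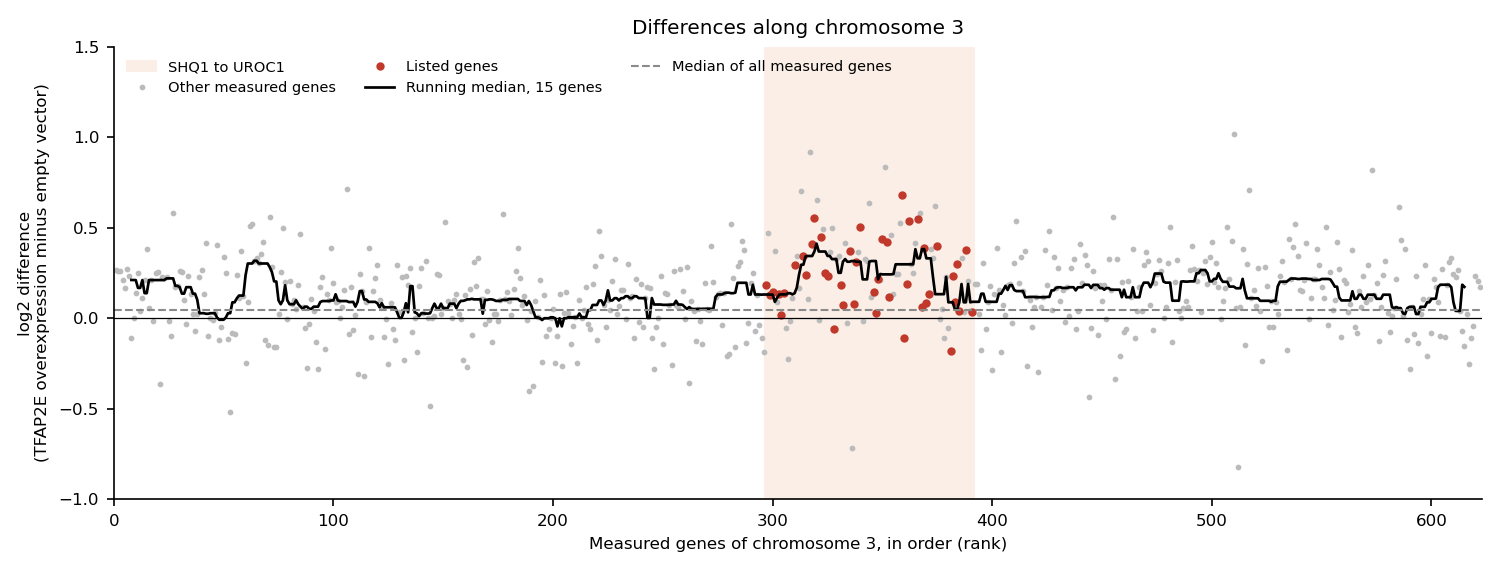
Log2 difference (TFAP2E overexpression minus empty vector) of the 622 measured genes of chromosome 3 in order, with listed genes in red, the interval SHQ1 to UROC1 shaded and a running median over 15 genes as a black line. The line peaks inside the interval at 0.41 around TOMM70, sinks to 0.05 near its far end, and stays below that peak over the rest of the chromosome. Outside the interval it still rises to 0.32 at NKIRAS1 on the short arm and to 0.27 at TIPARP on the long arm.

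A running median over 15 measured genes showed where the shift was strongest. It peaked at 0.41 in the window from RIOX2 to RPL24, centred on TOMM70, which was also its peak on the whole chromosome, and the members CLDND1, CPOX, TBC1D23, NIT2, TFG, PCNP and ZBTB11 lie in that window, from 0.23 to 0.55. RPL24, a ribosomal protein, differed by 0.50 in both of its probe sets. Within the interval the line was lowest, at 0.05, in the window from HACD2 to ZXDC, which holds the members HEG1, SLC12A8, ZNF148, SNX4, OSBPL11 and SLC41A3. Raised stretches were not confined to the interval. Outside it the line reached 0.32 at NKIRAS1 on the short arm and 0.27 at TIPARP on the long arm, against the members' median of 0.20. Counted over every measured gene, the short arm part had a median of 0.13 with 2 of 12 higher at 1.2-fold, a share near the background of 12.8%, and the long arm part 0.25 with 41 of 83.

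The borders were not sharp. The 20 measured genes before SHQ1 had a median of 0.05, close to that of all genes, with 10 above 0 and 10 below, where 59.2% of all measured genes lay above 0. At 1.2-fold 5 of the 20 were higher, where 12.8% of all measured genes were, and 0 were lower. The median of this flank was -0.01 without the filter on dim genes and 0.16 with a filter at the 75th percentile, so that this border depends on which genes are counted. The nearest were RYBP (-0.19), GPR27 (-0.11), EIF4E3 (-0.04), FOXP1 (0.13) and MITF (-0.07). The 20 measured genes after UROC1 had a median of 0.15, with 15 above 0, 4 higher at 1.2-fold and 1 lower. The nearest to UROC1 were CHST13 (0.19), NUP210P1 (0.19), CHCHD6 (0.02), PLXNA1 (-0.18) and TPRA1 (0.31). Beyond the interval, the 231 measured genes from there to the end of the long arm had a median of 0.17 and 28.1% were higher at 1.2-fold. The 296 before SHQ1 had 0.10 and 15.5%, and genes on other chromosomes 0.04 and 12.2%. Chromosome 3 as a whole had a median of 0.13, second to chromosome 7 at 0.18 and above chromosome 8 at 0.09, while the other chromosomes, counting 1 to 22 and X, lay between -0.04 and 0.06.

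**Figure D4:**
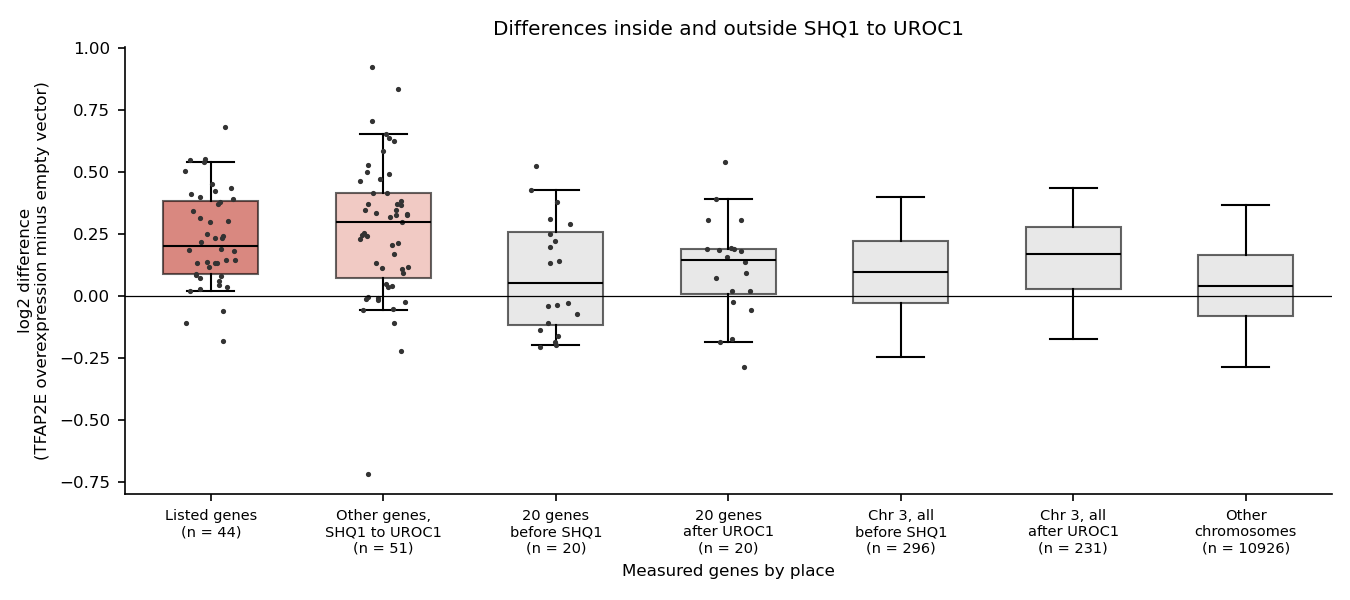
Log2 difference (TFAP2E overexpression minus empty vector) by place, with boxes from the 25th to the 75th percentile, a line at the median, whiskers at the 5th and 95th percentiles and single genes as points in the first 4 boxes. Medians run from 0.20 for the listed genes and 0.30 for the other genes of the interval to 0.05 before SHQ1, 0.15 after UROC1 and 0.04 on other chromosomes, and all boxes overlap.

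Many listed genes work in complexes or pathways whose other parts are encoded outside the interval. Across 14 such partner lists, 106 measured partners had a median difference of 0.09, and 18 of them were higher at 1.2-fold and 5 lower, against 12.8% and 6.05% of all genes. Of the partners 6 lie elsewhere on chromosome 3 (ALAS1, ATG7, GYG1, PARP3, TIPARP and CEP63), and the 100 others had a median of 0.08 with 17 higher at 1.2-fold. Some of these others lie on chromosomes 7 and 8, whose measured genes had medians of 0.18 and 0.09. They include WIPI2 and ZC3HAV1 on chromosome 7 and ATP6V1C1 and GTF2E2 on chromosome 8. The listed genes were chosen on this same difference, so that standing above partners is partly built in and is given as a description only. The listed gene stood above the median of its partners in 10 of the 14 lists and above every measured partner in 4. These were GTF2E1 among 10 parts of TFIIE and TFIIH, ATG3 among 12 genes of ATG8 conjugation, B4GALT4 among 6 sister enzymes and NAA50 among 2 acetyltransferase partners. Of 5 partners listed for NAA50 only these 2 were found by a single symbol. NAA50 at 0.15 was barely above NAA15 at 0.13, with NAA16 at 0.02. For GTF2E1 the margin was narrow at its near end, since the TFIIH assembly factor MNAT1 differed by 0.61, although GTF2E2, the small subunit of TFIIE itself, differed by 0.32 and GTF2H5 was lowest at -0.16. In ATG8 conjugation the phosphoinositide-binding protein WIPI2 came next at 0.47, ATG7, which hands ATG8 proteins on to ATG3, differed by 0.17, and ATG16L1 was lowest at -0.22. B4GALT4 (0.44) stood above the next enzyme, B4GALT6 at 0.27, and the lowest, B4GALT5 at 0.00.

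Elsewhere the listed gene lay within or below its partners. CPOX (0.24) was below UROD (0.36) and above FECH (-0.12), which act in the same heme pathway. The 5 listed partners of SHQ1 in H/ACA ribonucleoproteins, which include the assembly factor NAF1, were above 0, from GAR1 at 0.11 to NOP10 at 0.47, and 4 of them exceeded SHQ1 at 0.19. ATP6V1A (0.03) lay in the middle of 15 subunits of the proton pump, between ATP6AP1 at -0.27 and ATP6V1C1 at 0.54. CHMP2B (0.14) lay inside ESCRT-III, from CHMP6 at -0.38 to CHMP5 at 0.49, and PARP14 (0.13) inside its family, from ZC3HAV1 at -0.08 to PARP8 at 0.40. PPP4R2 (0.13) lay between PPP4R1 at -0.24 and PPP4R4 at 0.23, and GBE1 (0.02) between GYG2 at -0.11 and GYG1 at 0.25. CEP97 (-0.06) was low beside low partners, with its direct partner CCP110 at -0.35 and CEP63, which lies on chromosome 3 outside the interval, highest at 0.33. ROBO1 had 2 measured partners, SRGAP2 at -0.17 and SLIT1 at 0.49. CD47 had 2 as well, its receptor SIRPA at 0.09 and its ligand THBS1, which read 6.56 with TFAP2E against 7.53 with the empty vector (-0.97).

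**Figure D5:**
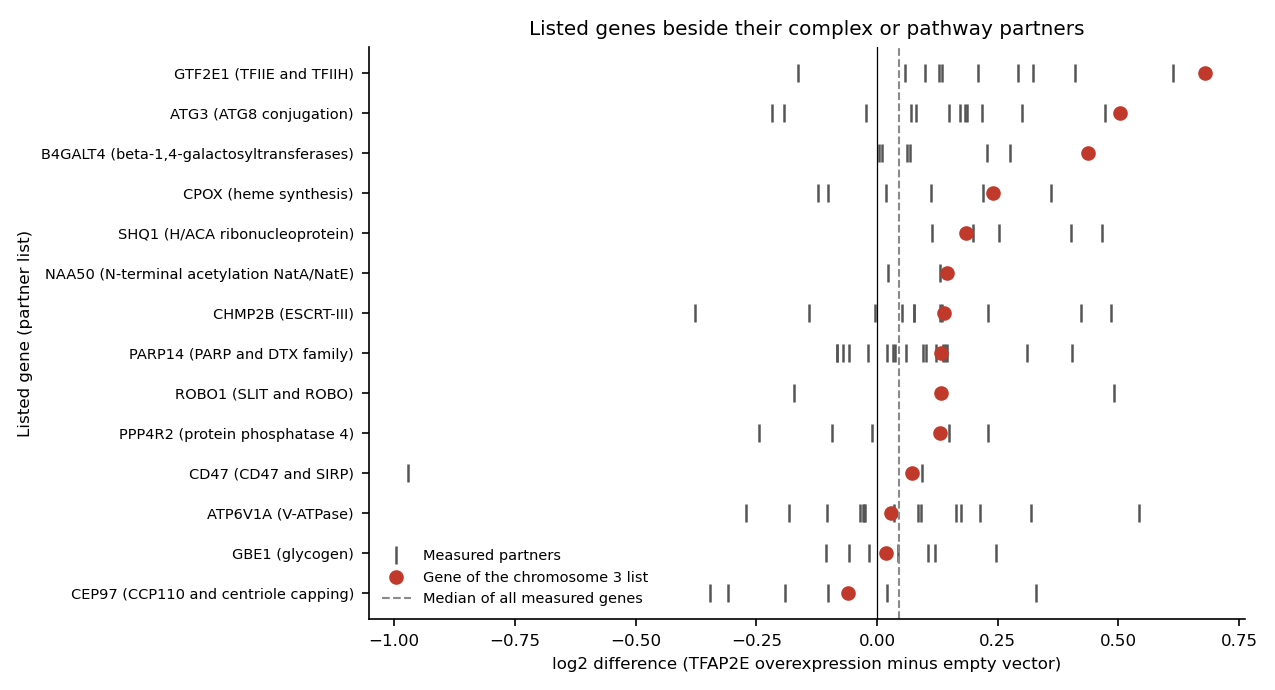
Log2 difference (TFAP2E overexpression minus empty vector) of 14 listed genes (red circles) and of their measured complex or pathway partners (ticks), 1 row per list, with the median of all measured genes as a dashed line. GTF2E1, ATG3 and B4GALT4 stand to the right of their partners, while ATP6V1A, CHMP2B and PARP14 lie among theirs.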

How the data were processed

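Total RNA of SW480 cells was hybridised to 1 Affymetrix array per group. Per the submitters' processing notes the authors used RMA, and the deposited table holds its log2 values, a row per probe set. RMA corrects background, brings arrays to a common distribution and summarises probes, so that a shift of all transcripts would not appear. The RMA version and the genome build were not given in the sources used here. Of 33297 probe sets 19460 had 1 symbol, 1754 several and 12083 none. Symbols were updated by Entrez identifier in a RefSeq gene table (GRCh38.p14), which held 19429 of the 19460 and served for names, chromosomes and neighbour order. A gene with several probe sets was given by the brightest.

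With 1 array per group there is no test. Differences, fixed folds of 1.2, 1.5 and 2, and the loess trend were computed in Python 3.11.15 with pandas 2.3.3 and statsmodels 0.14.6, and the scripts were tested on simulated data. The number of arrays limits the precision. The members, role groups and partner lists were chosen with earlier results of these data known. The named genes are the 55 members, the 5 highest and 5 lowest other genes of the interval, the 5 next to each end, and the highest and lowest partner in each list, and others are named as picked after their values were seen or as background to a member. Alternatives were 3 scalings, 2 filters, the mean of probe sets, a floor and other folds.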

Additional observations from a re-analysis of the deposited data

How the results depend on the processing

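The median difference of the members, 0.20, lay between 0.15 and 0.24 under 7 alternatives (3 scalings, no filter on dim genes, a filter at the 75th percentile, the mean over probe sets of a gene, and a floor at the 20th percentile), and that of all genes of the interval, 0.24, between 0.12 and 0.27. The lowest values of both came without the filter, where dim genes enter. The median of all genes, 0.04, was 0.07 after centring, 0.02 after quantile normalization and 0.01 after the loess trend was taken out. The count of members higher at 1.2-fold, 17 of 44, was 16 to 20 under 6 of the 7, among them 18 of 55 without the filter. With the 75th percentile filter, which leaves fewer genes, it was 11 of 30, and the count over the interval, 43 of 95, was 22 of 55. Over the 7, the share of members ran from 32.7% to 44.4% and that of all genes counted from 9.88% to 15.5%. At 1.5-fold the counts were 1 member and 7 genes of the interval, and at 2-fold 0 and 0. These changes follow from the settings themselves. The flank before SHQ1, 0.05, moved to -0.01 without the filter and to 0.16 with the 75th percentile filter, so its level rests on which genes are counted, and the flank after UROC1 stayed between 0.10 and 0.18. With the filter on the mean of both arrays, chosen after seeing the data, 16 of 43 members and 41 of 93 genes of the interval were higher at 1.2-fold, with medians of 0.19 and 0.23. By that filter 12.6% of all measured genes were higher. A filter does not change a member's own difference, the floor changed none, and averaging probe sets moved only PCNP and PROS1. Most of the 440 values of single members therefore only repeat the reported one. All stayed within 0.219 of it, which is the standard deviation over all genes, and the largest move was 0.10. The sign turned for 3 genes near 0, GBE1, ATP6V1A and CCDC80. No paired analysis was possible because a group holds a single array.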
